A study of Mus musculus with 40 samples.

Results

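The genes described here encode the nuclear pore complex and the carriers that move cargo through it, and they were followed in blood progenitors of mice that carry leukemia-associated mutations. The set holds 33 genes, chosen by symbol. Nup98 was left out because its fusion to HOXD13 is itself one of the mutations. Of the 33 genes, 32 had a row among the 41388 gene IDs counted at 14 days of age (P14) and among the 40548 counted at birth (P0), and all 32 passed the filter on low counts at both ages. Nup62, a channel protein, is not analysed here. RNA was sequenced in bulk from cells labelled as hematopoietic progenitor/MPP. At P14 there were 6 groups: wild type, Flt3-ITD (an activating internal duplication of the receptor tyrosine kinase Flt3), NHD13 (the NUP98-HOXD13 fusion), Runx1-HET (heterozygous for the transcription factor Runx1), and the combinations FLT3-ITD/NUP98-HOXD13 (ITD/NHD13) and FLT3-ITD/Runx1-HET (ITD/Runx1-HET). At P0 there were 3: Flt3-ITD, ITD/NHD13 and wild type. Every group comprised 4 libraries, 36 altogether. The labels do not name the strain, the promoter behind the fusion, the zygosity of the Flt3 allele, the part of Runx1 that is altered, or how the cells were sorted. They also do not say that each library is a separate animal, so p-values here measure the spread between libraries.

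The nuclear pore is the gate between nucleus and cytoplasm. Stacked rings of scaffold proteins (nucleoporins) hold it in the nuclear envelope, and proteins rich in phenylalanine-glycine repeats fill the channel and hold back large cargo that no carrier escorts. Carriers of the importin and exportin families load and unload cargo according to whether the small GTPase Ran is bound to GTP or GDP, a gradient kept by Rcc1 in the nucleus and Rangap1 outside it. NUP98 and NUP214 are known fusion partners in acute myeloid leukemia.

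Total counts were 13.7 to 27.3 M per library at P14 (median 19.9 M) and 17.3 to 39.3 M at P0 (median 28.8 M); M stands for mega. All 9 progenitor markers were detected, among them Kit, Cd34 and Ptprc. The 9 include Flt3 and Runx1, which are themselves altered in some genotypes, so progenitor counts and sums there include the altered genes. Hoxd13, the 3' partner of the fusion, lay between 2.09 and 4.21 CPM (counts per M counts of the library) in the 8 P14 libraries labelled with NHD13, against 0 to 0.0431 CPM in wild type. Runx1 was not lower in the libraries labelled Runx1-HET (46.6 to 58.1 CPM, against 39.4 to 57.5 in wild type), and it was higher in those labelled ITD/Runx1-HET (75.9 to 84.7). Its count includes any transcript of an altered allele, so it does not check that label. More Y-linked than Xist counts were found in 1 of 4 libraries each of wild type and Runx1-HET at P14. The number was 2 of 4 in ITD/Runx1-HET, 3 of 4 each in NHD13 and ITD/NHD13, and 4 of 4 in Flt3-ITD. At P0 it was 4 of 4 in Flt3-ITD and 2 of 4 each in wild type and ITD/NHD13. Sex thus differs between some of the groups at both ages. The second P0 library of ITD/NHD13 had the lowest mean level over the pore genes at that age (6.173 on the log2 CPM scale), and the P0 medians of that genotype are given with and without it.

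Levels of the pore and transport genes spanned a wide range in P14 wild type. Per kilobase of exon, Ran had the highest count at 161.8 CPM per kb and Nup35, an inner-ring scaffold protein, the lowest at 1.92. Both match copies elsewhere, described below, so their counts may not give their abundance. Next after Ran came Aaas (66.2), which partners a pore membrane protein, and Nup85 (59.0), Nup107 (49.5) and Seh1l (49.4) of the outer ring. Nup107 and Seh1l, neighbours in this order, lay within the spread of their libraries. Nup155 of the inner ring, Nup153 of the nuclear basket and Ranbp2 of the cytoplasmic filaments lay near the bottom, at 6.93, 6.94 and 6.17 CPM per kb. The coefficient of variation within the P14 wild type had a median of 12.8% over the 32 genes, from 3.29% for Nup54 to 20.2% for Nup160. In P0 ITD/NHD13 that median was 23.4%.

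Several genes share sequence with copies elsewhere or with overlapping genes. Kpna2 matched the pseudogene Gm10184 at 99.9% over 1968 bases and Nup35 matched Gm4353 at 99.6% over 1547 bases. Ran matched Gm13461 at 97.3% over 662 bases. Pom121 shares 665 exon bases with Nsun5 on the opposite strand, and the strand setting of the counting is not given in the sources used here. Nup54 matched Gm15790 at 98.0% over 1254 bases and Xpot matched Gm7389 at 96.0% over 2529 bases. Nup188 shares 776 exon bases with Gm28038 and Gm14471, and Nup133 shares 729 with Gm29773 and Gm45890 on the opposite strand. Reads of these 8 genes could be split or merged with those of their copies or neighbours, and shorter overlaps exist for other genes of the set.

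Promoter windows of 250 bases before to 50 bases after the RefSeq start (GRCm38.p6) were found for 29 of the 33 genes. They were searched on both strands for 3 motifs: CACGTG, known as an E-box; CCGGAAGT, an ETS-family motif; and the NRF1 palindrome, which reads the same on both strands. Matches were counted by gene, and the 29 genes had 31 windows. The E-box was present in 6 of 29 genes (20.7%), against 8.91% of protein-coding genes. CCGGAAGT was present in 4 (13.8%, against 5.69%), and the NRF1 palindrome in 5 (17.2%, against 1.47%): Nup107, Nup50, Nup62, Ran and Xpo5. These shares are descriptions, and a match is not a binding site. Of the 10 genes that passed a test against wild type, 8 had a window (Seh1l and Nup85 had none) and 3 of these held a motif, and their windows are shown because they belong to the genes the results turn on; capitals mark the motif. In Rae1 (chr2:172999867-173000166, plus strand) CCGGAAGT begins 8 bases after the start. In Nup107 (chr10:117792656-117792955, minus strand) the NRF1 palindrome begins at -65, and in Ran (chr5:129019906-129020205, plus strand) it begins at -205 and CACGTG at -118.
Rae1: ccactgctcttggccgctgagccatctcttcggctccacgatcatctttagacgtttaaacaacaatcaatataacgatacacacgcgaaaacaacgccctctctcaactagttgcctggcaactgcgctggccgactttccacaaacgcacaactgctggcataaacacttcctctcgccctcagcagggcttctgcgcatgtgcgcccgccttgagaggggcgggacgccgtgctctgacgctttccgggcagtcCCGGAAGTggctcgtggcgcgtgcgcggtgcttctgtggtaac
Nup107: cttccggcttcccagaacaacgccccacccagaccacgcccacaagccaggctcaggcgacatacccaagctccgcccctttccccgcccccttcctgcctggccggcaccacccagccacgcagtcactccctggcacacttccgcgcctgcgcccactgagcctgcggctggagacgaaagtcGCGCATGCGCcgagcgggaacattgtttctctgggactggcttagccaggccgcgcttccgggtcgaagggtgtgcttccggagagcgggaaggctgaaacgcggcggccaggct
Ran: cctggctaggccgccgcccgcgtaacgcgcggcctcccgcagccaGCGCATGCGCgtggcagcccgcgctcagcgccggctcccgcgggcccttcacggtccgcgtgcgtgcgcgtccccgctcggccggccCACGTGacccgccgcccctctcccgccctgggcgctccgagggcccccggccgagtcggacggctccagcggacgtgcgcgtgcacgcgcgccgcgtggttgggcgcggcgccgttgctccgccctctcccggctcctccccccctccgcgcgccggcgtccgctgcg

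Against the wild type of the same age, 10 of the 32 genes passed the test in at least 1 of 7 comparisons and 22 in none. All 13 calls were at P14 and all were toward higher levels. The share of all genes called in at least 1 of the 7 comparisons was not counted, so these pooled numbers have no background beside them. Shares for single comparisons follow. A call means an adjusted p under 0.05 in edgeR's quasi-likelihood test, with Benjamini-Hochberg adjustment over all genes tested. Nup37, Kpna2 and Tpr were called in 2 comparisons, and Rae1, Nup153, Nup88, Seh1l, Nup107, Nup85 and Ran in 1. The changes were small: Rae1 in ITD/NHD13 was the only called change over 0.5 on the log2 scale, and none reached 1. The 5 comparisons at P14 share the wild-type libraries, so their values are set side by side and are not independent.

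**Figure D1:**
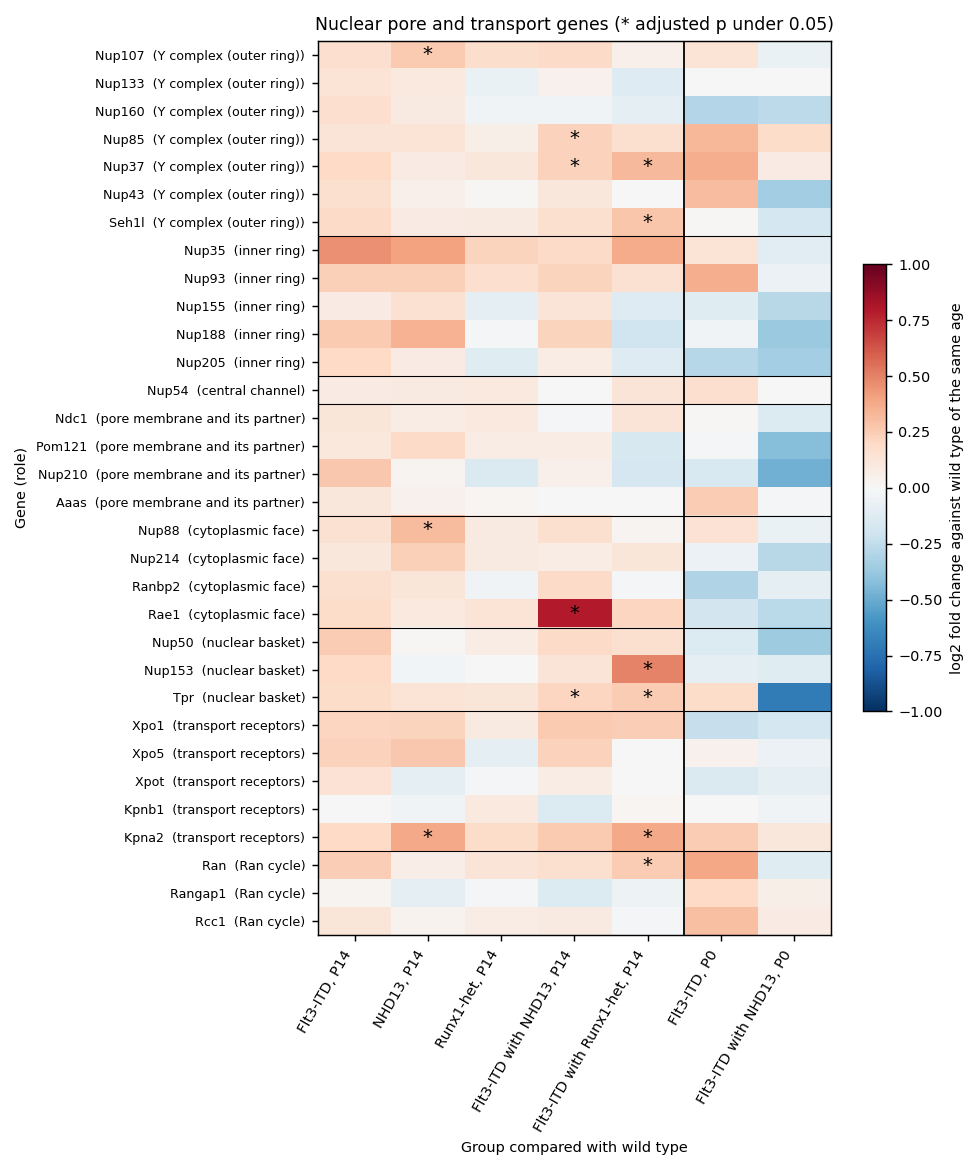
Log2 fold change of each of 32 nuclear pore and transport genes (rows, grouped by role) against wild type of the same age in 7 comparisons (columns), with red higher and blue lower. A star marks an adjusted p under 0.05; the 13 stars are all at P14, and the darkest red cell is Rae1 (0.79) in ITD/NHD13.

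In Flt3-ITD at P14 none of the 32 genes was called, while 31 of 32 values were above 0, against 6948 of 14394 for all genes. Values above 0 numbered 28 in NHD13, 26 in ITD/NHD13, 22 in Runx1-HET and 19 in ITD/Runx1-HET, against the same wild-type libraries. The median of the 32 in Flt3-ITD was 0.169, against -0.011 over all genes, with 8.6% of all genes called. An unadjusted p under 0.05 was reached by 9 genes (28.1%), against 21.2% of all genes. DESeq2 called Nup35 only, which stood at 0.46 ± 0.16 (SE, adjusted p = 0.078 by edgeR). Without the first wild-type library edgeR called 4 genes (Nup37, Seh1l, Nup35, Ran), and without Flt3-ITD library 1 or wild-type library 2 it called 1. In NHD13, 3 genes were called higher (Kpna2, Nup88 and Nup107), or 9.38%, against 15.9% of all genes called and 7.12% called higher. The median of the 32 was 0.095, against -0.008 over all genes, and 0.148 without wild-type library 2. In Runx1-HET no gene was called, 1 had an unadjusted p under 0.05 (against 8.91% of all genes), DESeq2 called 0, and 0.778% of all genes were called.

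ITD/NHD13 had 4 genes called higher, or 12.5%, against 22.4% of all genes and 10.2% in the higher direction. ITD/Runx1-HET had 6 higher, or 18.8%, against 22.7% of all genes and 10.7% higher. The medians of the 32 were 0.143 and 0.036, against 0.004 and -0.022 over all genes, and the latter lay between 0.044 and 0.087 with any 1 library of the groups compared left out (highest without ITD/Runx1-HET library 4). In each P14 group with calls, the share of pore and transport genes called was below the share of all genes called in either direction and above the share called higher. Groups that did not overlap with wild type were found for 5 genes in ITD/NHD13 (10.2% of all genes lay above every wild-type library), 3 in ITD/Runx1-HET (8.62%), 4 in NHD13 (7.79%) and 2 in Runx1-HET (2.04%), all higher.

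**Figure D2:**
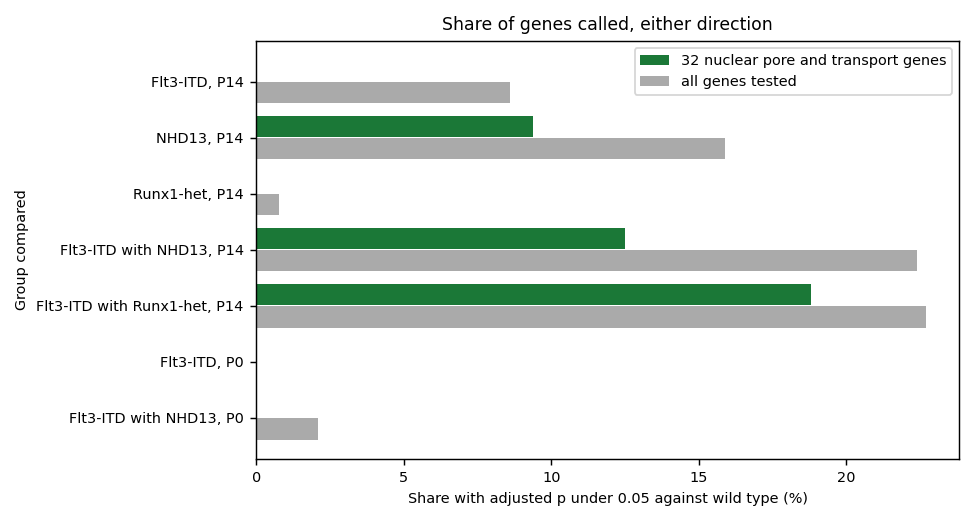
Share of genes with an adjusted p under 0.05 against wild type in either direction (horizontal axis, percent) in 7 comparisons, for the 32 pore and transport genes (green) and all genes tested (gray). Green bars reach 9.38%, 12.5% and 18.8% in NHD13 and the 2 combined genotypes at P14 and are absent elsewhere.

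Other cell types moved with these genotypes. In NHD13, 4 of 5 megakaryocyte markers were higher (summed 274.5 to 995.4 CPM, against 78.1 to 102.3 in wild type), 5 of 8 erythroid markers were higher (291.5 to 472.9, against 105.6 to 130.4), and 4 of 4 tested T and NK cell markers were lower (73.5 to 100.2, against 236.8 to 319.7). Of 9 progenitor markers in NHD13, 3 were lower and 1 higher (4077 to 4707 CPM summed, against 5115 to 6791).

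In ITD/NHD13, 4 of 5 megakaryocyte markers were higher (172 to 440.1 CPM), 3 of 8 erythroid markers were higher and 1 lower (103.4 to 139.2), and 3 of 4 tested T and NK cell markers were lower (84.2 to 108.7). Of 9 progenitor markers 4 were lower and 2 higher there (3686 to 4351 CPM summed). In ITD/Runx1-HET, 3 of 3 tested B cell markers were lower (0.614 to 3.07, against 15.9 to 36.3), 3 progenitor markers were lower and 2 higher (4885 to 5659), and of 5 tested macrophage and dendritic markers 2 were higher and 2 lower (168.3 to 254.2 summed, against 47.4 to 58.8). The progenitor markers include Flt3 and Runx1, both altered in this genotype. Also lower there were 2 of 4 tested T and NK cell markers and 1 of 5 megakaryocyte markers. Of 8 erythroid markers, 1 was higher and 2 lower. In Flt3-ITD at P14, 2 of 5 tested macrophage and dendritic markers were higher (82.6 to 102.7), 1 of 8 erythroid markers was lower (43.6 to 49.8) and 2 of 4 T and NK cell markers were lower, although their sum (292.6 to 378.3) overlapped wild type. In the same group 1 progenitor marker was higher and 1 lower, and 1 of 5 megakaryocyte markers was lower. In Runx1-HET 1 progenitor marker was higher and 1 lower, and 1 of 4 tested neutrophil markers was lower. Of 5 tested macrophage and dendritic markers at P14, 1 was lower in NHD13 and 2 were higher in ITD/NHD13. Of 4 tested endothelial and stromal markers, 1 was lower in each P14 genotype with Flt3-ITD. At P0 no cell type marker was called in Flt3-ITD, where 0.0139% of all genes were called. In P0 ITD/NHD13, 3 of 4 tested T and NK cell markers were lower (82.04 to 115 CPM, against 197.2 to 223.2). There 1 of 5 megakaryocyte markers was higher (126.1 to 253.2, against 98.6 to 127.2) and 1 of 9 progenitor markers was lower (3275 to 3838, against 4800 to 5618). The 4 hepatocyte markers, none called at P0, summed to 19.25 to 508.5 CPM in wild type (median 39.29). Their sums were 16.61 to 25.06 CPM in P0 Flt3-ITD and 12.42 to 28.1 in P0 ITD/NHD13. All 4 had an unadjusted p under 0.05 (edgeR) in both, against 10.2% and 11.2% of all genes. Among 20 proliferation genes, 1 was higher in NHD13 and 4 were lower in ITD/NHD13. In ITD/Runx1-HET 1 was higher and 1 lower. In P0 ITD/NHD13 1 proliferation gene was lower, as was 1 of 6 macrophage and dendritic markers. The 6 mast cell, basophil and eosinophil markers had calls in both directions at P14. These were 1 higher and 1 lower in Flt3-ITD, 2 and 2 in NHD13, 2 and 1 in ITD/NHD13, and 1 and 2 in ITD/Runx1-HET. Summed over the 6 markers, P14 wild type lay at 224.3 to 864.2 CPM. Every library of Flt3-ITD (25.15 to 84.94), ITD/NHD13 (40.25 to 129.8) and ITD/Runx1-HET (18.93 to 27.46) lay below that. The sums in NHD13 (133.1 to 413.7) and Runx1-HET (34.53 to 597.3) overlapped wild type. Fewer cells of a type and less RNA per cell cannot be told apart in bulk RNA, and the part of these shifts in the pore gene values was not tested.

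The Y complex is the outer-ring scaffold, and 4 of its 7 genes passed against wild type in at least 1 comparison. That pooled number has no background beside it. Single comparisons at P14 gave 1 call of 7 genes in NHD13, 2 in ITD/NHD13 and 2 in ITD/Runx1-HET. Of all genes, 15.9%, 22.4% and 22.7% were called in these comparisons, and 7.12%, 10.2% and 10.7% were called higher. Nup37 (chromosome 10, 88146992 to 88178390, plus strand), a peripheral subunit of the complex, was at 170.4, 134, 138 and 137 CPM in the 4 wild-type libraries. In ITD/NHD13 it was at 174, 173, 172 and 163 CPM, and in ITD/Runx1-HET at 169.9, 186, 197 and 172. The first wild-type library stood apart from the other 3 and overlapped both genotypes. Nup37 rose in both, by 0.23 ± 0.08 (adjusted p = 0.0249, edgeR) and 0.32 ± 0.08 (adjusted p = 0.00243, edgeR). Without wild-type library 1 these were 0.32 and 0.41.

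Seh1l (chromosome 18, 67774876 to 67795487, plus strand), a subunit shared with a nutrient-sensing complex, was at 237, 208, 199.5 and 170.1 CPM in wild type and 264, 255, 235 and 235 in ITD/Runx1-HET. The ranges overlapped through the first wild-type library. It rose by 0.28 ± 0.08 (adjusted p = 0.0146, edgeR). Nup85 (chromosome 11, 115564434 to 115583985, plus strand) was at 220.1, 202, 202 and 176 CPM in wild type and 250.2, 234, 214 and 242 in ITD/NHD13. The call was narrow, 0.23 ± 0.08 (adjusted p = 0.0474, edgeR).

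Nup107 (chromosome 10, 117750621 to 117792705, minus strand), a core subunit of the Y complex, was at 192, 202, 199 and 169 CPM in wild type. In NHD13 it was at 224, 239.6, 222 and 230.4 CPM, with every library above every wild-type library. It rose by 0.27 ± 0.08 (adjusted p = 0.0161, edgeR). The same separation held in Runx1-HET (204 to 232 CPM) and in ITD/NHD13 (206 to 227 CPM), where the test did not call it. Nup43, Nup133 and Nup160 were called in no comparison, and Nup160 ranged from -0.29 to 0.17 on the log2 scale against wild type.

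None of the 5 inner-ring genes, the scaffold around the central channel, passed against wild type. Nup93, which links inner-ring proteins, had values of 0.15 to 0.24 in the 5 P14 comparisons. Nup188 was highest in NHD13 (0.35 ± 0.13, adjusted p = 0.0694, edgeR) and lowest in P0 ITD/NHD13 (-0.37). Among the membrane-anchored genes Ndc1, Pom121, Nup210 and the partner Aaas, none passed. Nup54, a channel protein, was above every wild-type library in NHD13 by only 0.09 ± 0.08 and was not called.

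Rae1 and Nup88 face the cytoplasm. Rae1 (chromosome 2, 173000117 to 173015739, plus strand), an mRNA export factor that binds Nup98, was at 17.2, 23.8, 16.5 and 22.4 CPM in wild type. In ITD/NHD13 it was at 39.5, 32.5, 38.6 and 27.9 CPM, and every one of these lay above every wild-type library. It rose by 0.79 ± 0.13 (adjusted p = 3.61e-05, edgeR), the largest change of the set against wild type, and 0.72 to 0.89 with any 1 library of these groups left out.

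In the single genotypes, Rae1 was at 22.1, 21.1, 24.5 and 17.6 CPM in NHD13 and at 24.5, 24.2, 19.96 and 21.6 in Flt3-ITD. Neither group separated from wild type. Against Flt3-ITD alone, ITD/NHD13 was higher in Rae1 by 0.61 ± 0.13 (adjusted p = 0.0012, edgeR), and it was the only gene of the set called in that comparison, where 13.5% of all genes were called and 6.35% called higher. Its 4 libraries lay above all 4 of Flt3-ITD, as did those of 7.78% of all genes. The excess over the sum of the single effects was 0.52 ± 0.19, which did not pass (adjusted p = 0.326, edgeR).

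Nup88 (chromosome 11, 70943058 to 70969973, minus strand), which holds Nup214 on the cytoplasmic face, was at 136, 120.3, 117 and 112 CPM in wild type and 130.1, 154, 163 and 158 in NHD13. The first NHD13 library overlapped wild type. Nup88 rose by 0.32 ± 0.09 (adjusted p = 0.0145, edgeR). Nup214 and Ranbp2, a Ran-binding filament protein, did not pass.

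**Figure D3:**
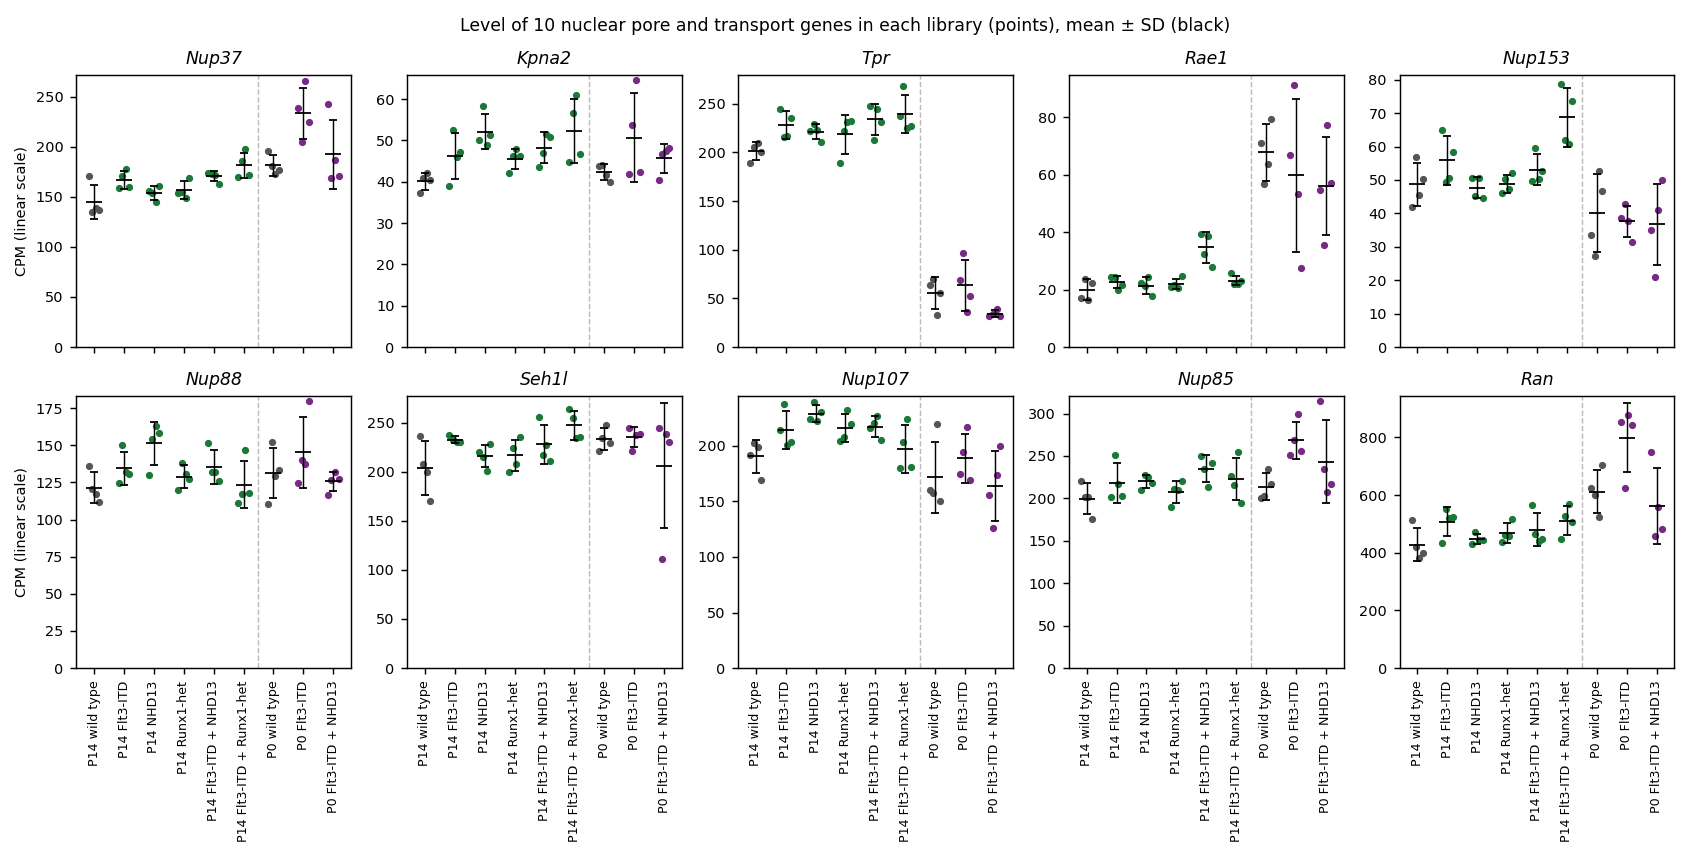
Level of the 10 genes that passed a test against wild type, in CPM on a linear axis from 0, in each library (points) with the mean and SD of 4 libraries (black), by group; gray is wild type, green the P14 genotypes and purple the P0 genotypes. Rae1 in P14 ITD/NHD13 (27.9 to 39.5 CPM) lies above all P14 wild-type libraries (16.5 to 23.8). The ages were normalised separately.

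The nuclear basket holds genes that dock mRNA and chromatin on the inner side. Nup153 (chromosome 13, 46679905 to 46727940, minus strand), a docking site of the basket, was at 41.9, 56.8, 45.6 and 50.4 CPM in wild type and 78.7, 61.9, 60.7 and 73.8 in ITD/Runx1-HET. The groups did not overlap. It rose by 0.50 ± 0.11 (adjusted p = 0.0011, edgeR) and stayed called with any 1 library of these groups left out.

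Tpr (chromosome 1, 150392838 to 150449935, plus strand), the filament protein of the basket, was at 189, 206, 210.0 and 200.2 CPM in wild type. It was at 248, 213, 244 and 231 CPM in ITD/NHD13 and at 238, 268, 225 and 228 in ITD/Runx1-HET. Both groups lay above every wild-type library. Tpr rose by 0.22 ± 0.08 (adjusted p = 0.0369, edgeR) and by 0.25 ± 0.08 (adjusted p = 0.0158, edgeR). It also lay above wild type in all 4 Flt3-ITD libraries, where it was the only such gene of the 32, against 5.11% of all genes.

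Kpna2 (chromosome 11, 106988629 to 106999541, minus strand), importin alpha, the adaptor that recognises nuclear localisation signals, was at 37.3, 40.9, 42.2 and 40.3 CPM in wild type. It was at 50.2, 58.3, 48.8 and 51.2 CPM in NHD13 and 44.8, 56.6, 61.1 and 46.8 in ITD/Runx1-HET, above every wild-type library in both. It rose by 0.38 ± 0.10 in each (adjusted p = 0.0105 and 0.00807, edgeR). Kpnb1, the importin beta that carries it, did not pass and lay between -0.14 and 0.10 against wild type at P14. The exportins Xpo1, Xpo5 and Xpot did not pass.

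Ran (chromosome 5, 129020069 to 129024323, plus strand), the GTPase that sets direction, was at 512, 419, 382 and 399 CPM in wild type and 448, 526, 568 and 505 in ITD/Runx1-HET. The first wild-type library overlapped the genotype. Ran rose by 0.26 ± 0.09 (adjusted p = 0.0482, edgeR). Rcc1 and Rangap1 did not pass.

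Several of these calls lay close to the threshold. Of the 8 fits against wild type that each left out 1 library of the groups compared, 6 lost Nup85 in ITD/NHD13, 6 lost Tpr there and 6 lost Ran in ITD/Runx1-HET, while the changes stayed at 0.18 to 0.28, 0.19 to 0.26 and 0.21 to 0.35. Of these fits, Nup85 was called only without wild-type library 1 or ITD/NHD13 library 3, Tpr only without wild-type library 3 or ITD/NHD13 library 2, and Ran only without wild-type library 1 or ITD/Runx1-HET library 1. Nup37 in ITD/NHD13 was lost without wild-type library 2, 3 or 4. In ITD/Runx1-HET, Seh1l was lost without wild-type library 4 or library 1 of that genotype, and Tpr without library 2 of that genotype. In NHD13, Nup107 and Kpna2 were lost without NHD13 library 2, Nup107 also without wild-type library 4, and Nup88 without NHD13 library 3, while 5 genes were called without wild-type library 2. In ITD/NHD13, 1 gene (Rae1) was called without wild-type library 2 or 4, and 2 without wild-type library 3 or library 4 of that genotype. Nup37, Nup153 and Kpna2 in ITD/Runx1-HET and Rae1 in ITD/NHD13 were called in all 8 fits. With sex as a term in the fit, Nup107 (0.24, adjusted p = 0.052, edgeR) and Nup88 (0.26, adjusted p = 0.072, edgeR) were not called in NHD13, nor were Nup85 (0.21, adjusted p = 0.114, edgeR) and Tpr (0.21, adjusted p = 0.0794, edgeR) in ITD/NHD13 or Ran (0.23, adjusted p = 0.0796, edgeR) in ITD/Runx1-HET.

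Against Flt3-ITD alone, 2 genes were lower in ITD/Runx1-HET, where 7.2% of all genes were called and 3.9% were lower. Nup210, a membrane-spanning pore protein, was at 309.9, 366, 273 and 312 CPM in Flt3-ITD and 249.9, 238, 236 and 207 with both. It fell by 0.44 on the log2 scale (SE 0.11, adjusted p = 0.0124, edgeR). Nup188, an inner-ring scaffold protein, was at 154, 212, 152 and 159 CPM in Flt3-ITD and 129.6, 136, 133 and 94.6 with both, without overlap; 4 genes of the set (Nup133, Nup188, Nup205 and Nup210) separated downward this way, against 6.32% of all genes. It fell by 0.46 (SE 0.13, adjusted p = 0.0283, edgeR). With a sex term Nup188 was not called (adjusted p = 0.0728, edgeR). Neither was called without Flt3-ITD library 2 or without the fourth library of the combined genotype. For the interaction of Flt3-ITD and NHD13, 0 genes passed, 6 had an unadjusted p under 0.05 (18.8%, against 8.96% of all genes), DESeq2 called 0, and 0.535% of all genes were called. For that of Flt3-ITD and Runx1-HET, 0 passed, 2 had an unadjusted p under 0.05 (6.25%, against 11.4%), DESeq2 called 0, and 1.68% of all genes were called.

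At birth no gene of the set passed in any comparison, and replicates spread more widely (median SE 0.187, against 0.104 at P14). Flt3-ITD gave 5 genes with an unadjusted p under 0.05 (15.6%, against 10.2% of all genes) and 0 by DESeq2, with 0.0139% of all genes called. Nup37 (0.36 ± 0.14), Nup85 (0.33 ± 0.14) and Nup93 (0.36 ± 0.13) were above every wild-type library, a separation seen upward in 5.51% of all genes. ITD/NHD13 gave 2 genes with an unadjusted p under 0.05 (6.25%, against 11.2%) and 0 by DESeq2, with 2.08% of all genes called. The median of the 32 was -0.119, against 0.015 over all genes, and it was 0.008 without the second library of that genotype. Against Flt3-ITD alone edgeR called 0, where 2.88% of all genes were called, and 4 had an unadjusted p under 0.05 (12.5%, against 15.7% of all genes). The median of the 32 was -0.181, and -0.114 without the second ITD/NHD13 library. DESeq2 called 2 lower (Nup93 and Tpr). edgeR called 2 lower (Nup43 and Ran) without the first ITD/NHD13 library, 1 (Nup43) without Flt3-ITD library 2 and 1 (Tpr) without Flt3-ITD library 3.

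Wild-type levels differed between the P0 and P14 libraries for a few genes. The 2 ages were normalised separately, and age cannot be told apart from any batch that differs between them. For 28 of 32 genes the log2 ratio of P0 to P14 wild type lay within 0.5. Tpr was lower at birth (63.7, 70.4, 32.7 and 55.5 CPM, log2 ratio -1.86), and Rae1 was higher (71.1, 56.6, 63.6 and 79.4 CPM, log2 ratio 1.76). Ranbp2 (-0.75) and Ran (0.52) also lay outside that range.

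**Figure D4:**
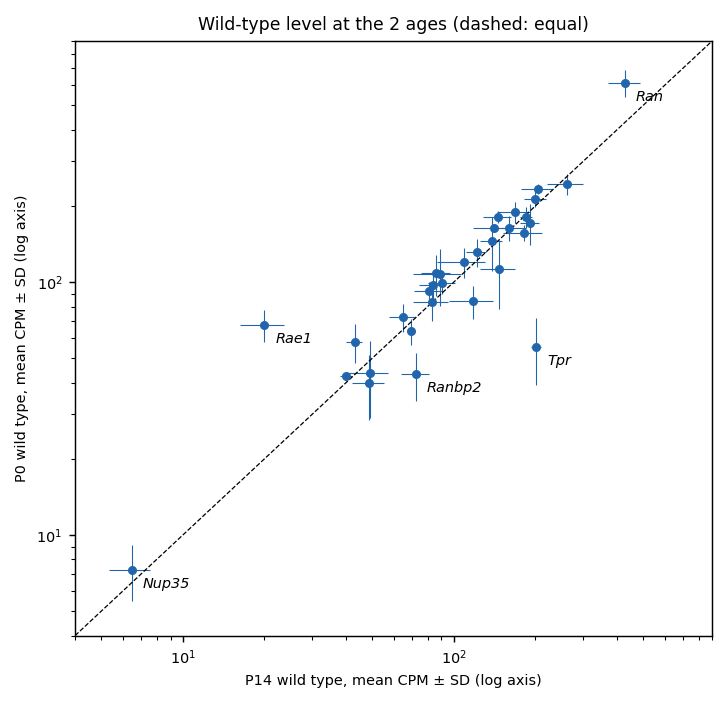
Mean CPM with SD of 4 wild-type libraries at P14 (horizontal, log axis) and at P0 (vertical, log axis) for the 32 genes; the dashed line marks equal levels. Genes lie near the line, 28 of 32 within 0.5 on the log2 scale, with Tpr (log2 ratio -1.86) far below it and Rae1 (1.76) far above.

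The effect of ITD/NHD13 differed between the ages for 2 genes. P14 minus P0, the difference was 0.94 ± 0.25 for Tpr (adjusted p = 0.0236, edgeR) and 1.08 ± 0.31 for Rae1 (adjusted p = 0.0352, edgeR), with 3.91% of all genes called and 1.37% called higher. The median difference of the 32 was 0.30, and 0.178 without the second P0 library of ITD/NHD13. At P0 Tpr was at 32.02, 34, 39.5 and 31.4 CPM in ITD/NHD13, and 2 of these lay below the lowest wild-type library (32.7). Neither difference was called when only the groups compared were fitted, or without P0 wild-type library 1, the second P0 library of ITD/NHD13, or P14 library 1 or 3 of that genotype. With a sex term Rae1 was not called (adjusted p = 0.0545, edgeR). Of the other libraries, leaving out P0 library 3 of that genotype gave 4 calls (Nup188, Nup210, Rae1 and Tpr), P0 wild-type library 2 left 1 (Rae1), and P0 wild-type library 4, P14 wild-type library 1 or 3, or the second P14 library of that genotype left 1 (Tpr). For Flt3-ITD alone 0 passed, 0 had an unadjusted p under 0.05 (against 7.62% of all genes), DESeq2 called 0, and 0.194% of all genes were called.

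Other genes of the pathway were read from a separate list of 37, of which 36 were tested. Ranbp1, a Ran-binding protein, was listed at 0 to 0.0944 CPM and was not tested. It shares 335 exon bases (20.1%) with Gm49776 on the same strand and Trmt2a on the opposite strand, so its count is uncertain. Of the 36, 1 was called higher in Flt3-ITD at P14, 1 in NHD13, 4 in ITD/NHD13 and 3 in ITD/Runx1-HET, where 1 was lower. Among all genes, 8.6% were called in Flt3-ITD, 15.9% in NHD13, 22.4% in ITD/NHD13 and 22.7% in ITD/Runx1-HET. Those called higher were 7.12% in NHD13, 10.2% in ITD/NHD13 and 10.7% in ITD/Runx1-HET. In Runx1-HET edgeR called 0, with 0 at an unadjusted p under 0.05, and at P0 it called 0, with 3 unadjusted in Flt3-ITD and 2 in ITD/NHD13. The unadjusted shares of all genes were 8.91% in Runx1-HET, and 10.2% in Flt3-ITD and 11.2% in ITD/NHD13 at P0. Mcm3ap, the mRNA-export scaffold protein GANP, rose in the 3 P14 genotypes with Flt3-ITD. It was at 45.8, 63.4, 59.9 and 51.2 CPM in wild type and at 107, 118.7, 91.6 and 91.0 in Flt3-ITD (0.89 ± 0.12, adjusted p = 1.32e-05, edgeR). With NHD13 added it was at 117.4, 105.6, 107.4 and 110.2 CPM, and with Runx1-HET added at 103.8, 105.3, 134.4 and 95.7, without overlap with wild type. NHD13 and Runx1-HET alone did not pass (0.15 and 0.12), nor did the P0 groups (0.40 and 0.41). The 3 calls held with any 1 library of the groups compared left out. Mcm3ap shares 188 exon bases (2.61%) with Ybey on the opposite strand. In NHD13, Kpna1, another importin alpha, rose by 0.33 ± 0.10 (adjusted p = 0.0231, edgeR). In ITD/NHD13, Nup42 (0.42 ± 0.14, adjusted p = 0.0242, edgeR), Nup58 (0.33 ± 0.12, adjusted p = 0.0496, edgeR) and the SUMO protease Senp2 (0.30 ± 0.11, adjusted p = 0.0493, edgeR) also rose. In ITD/Runx1-HET the mRNA-export adaptor Alyref rose by 0.40 ± 0.14 (adjusted p = 0.0336, edgeR). Nup58 shares 55.4% of its exon bases with Atp8a2, Gm49336 and Mir719 on the same strand, so its count is uncertain. With a sex term Kpna1 and Nup58 were not called (adjusted p = 0.0685 and 0.0593, edgeR). Each of these 5 calls was lost in at least 4 of the 8 fits without 1 library. Eny2, a subunit of the mRNA-export complex at the basket, rose in ITD/Runx1-HET by 0.34 ± 0.07 (adjusted p = 0.00071, edgeR), and it was higher there than in Flt3-ITD alone by 0.30 ± 0.07 (adjusted p = 0.00715, edgeR). Ddx19b, an mRNA-export helicase, fell by 0.56 on the log2 scale (SE 0.13, adjusted p = 0.00201, edgeR) in ITD/Runx1-HET. The Eny2 and Ddx19b calls against wild type held in all 8 such fits.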

How the data were processed

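RNA of mouse hematopoietic progenitors was prepared with a Qiagen micro kit and a Clontech low-input kit, per the labels' protocols. Reads were processed with STAR, Subread and featureCounts 1.4.5, per the submitters' processing notes; genome build, strand setting and annotation are not given in the sources used here. The deposited values are raw counts per gene, in 1 table per age. Gene IDs were named with GENCODE M21 (GRCm38; 40254 IDs in each table), and 276 repeated rows with identical values were dropped at P0. The labels hold 40 samples in 10 groups; 36 libraries in 9 groups were used. P0 NHD13 was not analysed here, and 4 P0 columns that match no sample were not used.

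Counts were normalised by TMM, filtered with filterByExpr and tested with edgeR 4.0.16 (robust quasi-likelihood), at P14 on 14394 genes in 24 libraries and at P0 on 14359 genes in 12, with Benjamini-Hochberg adjustment over all genes. For the differences between ages, all 36 libraries were fitted together. Levels are TMM-normalised CPM, SEs are of log2 fold changes, and counts that passed the filter were 99.9% of the total. Replicates of a group differed beyond counting noise (54 pairs, lowest chi-square per degree of freedom 9.11). Alternatives were DESeq2 1.42.0, no filter, a sex term, a replicate block, only the groups compared, and leaving out each library. The members and gene lists were chosen with earlier results of these data known. Genes were named by a rule: those past the threshold, the highest and lowest levels, and a member of each role that did not pass. The procedure was tested on simulated data. P-values rest on 4 libraries a group. Promoters came from RefSeq.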

Additional observations from a re-analysis of the deposited data

Results flagged for a closer look

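Among 90 groups of 4 libraries tested for 1 that stands apart, 5 had one, where chance gives about 1 in 20. Nup37 was at 163.3 CPM in 1 library of P14 ITD/NHD13, below the other 3, and at 170.4 CPM in 1 P14 wild-type library, above the other 3. Seh1l was at 111.3 CPM in 1 library of P0 ITD/NHD13, against 230.6 to 244.9 in the others. Nup107 was at 219.3 CPM in 1 P0 wild-type library, and Ran at 623.7 CPM in 1 P0 Flt3-ITD library. The effect of ITD/NHD13 differed between P14 and P0 for Rae1 (1.0833 on the log2 scale, adjusted p = 0.0352, edgeR) and Tpr (0.9401, adjusted p = 0.0236, edgeR).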

How the results depend on the processing

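The labels do not say that a replicate number marks a shared animal or batch. The mean correlation of deviations for a shared number lay between -0.0114 and 0.0326 at P14 (-0.00302 for different numbers). At P0 it was 0.128 for number 1 (all 3 pairs over 0.1), 0.152 for number 2, 0.0201 for number 3 and -0.00399 for number 4 (-0.024 for different numbers). Not every pair was over 0.1 at either age, so the numbers were not taken as pairing. By mean correlation, 7 of 24 libraries at P14 and 7 of 12 at P0 were closest to the libraries of their own number. What the P0 values for numbers 1 and 2 reflect was not tested. With a replicate block, 5 genes passed in NHD13 instead of 3. Without the low-count filter, 1 gene passed in ITD/NHD13 and 1 in the age difference of that genotype. DESeq2 called 1 gene in Flt3-ITD at P14 and 2 in ITD/NHD13 against Flt3-ITD at P0. With a sex term, 1 passed in NHD13, 2 in ITD/NHD13, 1 in ITD/Runx1-HET against Flt3-ITD, and 1 in the age difference. With only the groups compared, 1 passed in ITD/NHD13, 3 in ITD/Runx1-HET and 0 in the age difference. Leaving out 1 library at a time gave 0 to 4 genes in Flt3-ITD, 1 to 5 in NHD13, 1 to 5 in ITD/NHD13, 4 to 7 in ITD/Runx1-HET, 0 to 3 in ITD/Runx1-HET against Flt3-ITD, 0 to 2 in ITD/NHD13 against Flt3-ITD at P0, and 0 to 4 in the age difference of that genotype. The cause of these shifts was not tested. No gene changed direction in any alternative in a comparison where it was called. Genes that were not called were not checked for direction. The medians moved by less than the spread between libraries. The P0 median of ITD/NHD13 against wild type passed 0 (0.008) without the second library of that genotype. The number of libraries, 4 a group, limits the precision.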
